A study of Mus musculus with 16 samples.

Results

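The subunits of the mitochondrial respiratory chain and ATP synthase that are encoded in the nucleus were followed through polysome RNA of mouse glomeruli and podocytes. A gene was a member when the probe's accession, matched to the mouse RefSeq gene table, gave a symbol beginning with Nduf and one of the letters a, b, c, s or v and a digit, with Uqcr, with Cox and a digit from 4 to 8, or with Atp5, or equal to Sdha, Sdhb, Sdhc or Sdhd. The table holds 87 protein-coding genes of that kind, and 84 of them had a named probe, out of 20145 genes with one. Ndufb1, Ndufb4b and Ndufb4c were not analysed here. Of the 84 members, 82 were tested together with all 14575 genes that passed the filter on dim probes, which kept a probe only where some group had all 4 of its arrays well above background. The 82 were 37 subunits of complex I, 4 of complex II, 8 of complex III, 16 of complex IV and 17 of complex V. Complexes were assigned by symbol, so Ndufa4 and Ndufa4l2 are counted with complex I. Cyc1, a subunit of complex III, does not match the rule and was read in a separate list. Cox8b and Cox8c, muscle and testis forms of a complex IV subunit, were not well above background on all 4 arrays of any group. Of the tested members, 81 were well above background on all 4 arrays of every group, and Cox7b2 passed through normal podocytes alone. The symbols are those of the table, so Atp5a1 and Atp5b are the genes also called Atp5f1a and Atp5f1b, and Atp5g1, Atp5g2 and Atp5g3 those also called Atp5mc1, Atp5mc2 and Atp5mc3.

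Complexes I and II feed electrons from NADH and succinate into ubiquinone, complex III hands them to cytochrome c, and complex IV passes them to oxygen. Complexes I, III and IV pump protons as they do so, and complex V, the ATP synthase, lets the protons back through its c ring to drive its catalytic head. Each complex except the second also holds subunits made from mitochondrial DNA, which are not among the members. Podocytes, the epithelial cells whose foot processes cover the glomerular capillaries, are known to draw on glycolysis as well as on respiration, whereas proximal tubule cells depend largely on respiration.

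Podocyte RNA came from Nphs1-RiboTag mice on the C57BL/6N background, in which Cre under the control of the nephrin gene Nphs1 places an HA epitope on the ribosomal protein Rpl22, so that antibody to HA pulls down podocyte ribosomes with the mRNA on them. There were 4 samples each of normal podocytes, of podocytes 4 days and 7 days after LMB2, and of normal glomerular cells, whose RNA was taken from polysomes that had not been precipitated. The LMB2 mice also carried NEP25, a transgene that puts human CD25 on podocytes, and received 1 tail vein injection of 0.625 ng LMB2 per g of body weight. LMB2 is an immunotoxin that enters through CD25 and stops translation. The normal mice are described as carrying the tag without NEP25 and without LMB2, so the transgene, the toxin and the injury cannot be told apart. Whether each array is a separate animal is not given, and p-values measure the spread between these samples. Each sample was measured on 1 Agilent array with 1 colour. Values below are log2 intensities relative to the array's 75th percentile, a called gene has a Benjamini-Hochberg adjusted p under 0.05 in limma over all 14575 genes, and a difference is the first group named minus the second.

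All 8 normal arrays lay on 1 slide and were scanned on 1 day, and all 8 LMB2 arrays lay on the other slide and were scanned on another day, so LMB2, slide and scan day cannot be told apart. The 10 podocyte markers were all higher in normal podocyte than in glomerular RNA, and all 17 proximal tubule, all 10 endothelial and all 8 mesangial markers were lower there. Of 9 distal nephron markers 8 were lower, and of 7 leukocyte markers 6 were. The means of Aqp2 and Cd3e, from these lists, were above those of glomerular RNA. Of 5 parietal markers 3 were lower and 1 was higher, Cldn1 and Pax8 being the 2 with means above those of glomerular RNA. Every endothelial, mesangial and podocyte marker was nevertheless well above background on all 4 arrays of every group. Proximal tubule markers, averaged over the list and set against normal podocytes as a group, stood at 2.15 on day 7 replicate 4, at 1.57 on day 4 replicate 1 and at 1.09 on normal podocyte replicate 4, and between -1.60 and -0.13 on the other podocyte arrays.

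Podocyte RNA was precipitated and glomerular RNA was not, so cell type and precipitation cannot be told apart. Glomerular cells include podocytes, so a part was set against a whole that holds it. In podocyte against glomerular RNA, 43 of the 82 subunits (52.4%) were higher and 4 were lower. Cox7b2, among the 43, entered the test only through normal podocytes, and there were 42 without it. Among all genes tested, 51.6% were called higher and 27.6% lower. SEs and adjusted p-values of single genes are from the fit without a block, which ignores any pairing of same-numbered samples. With the replicate number as a block, 53 subunits were higher (64.6%), 30 of them in complex I, against 54.6% of all genes. All 47 calls of the first fit held and 57 subunits were called. Some subunits not called by the first fit were thus called with the block. The median difference was 0.29 over the subunits and 0.38 over all genes. Quantile normalization, which forces all arrays to 1 distribution, gave 27 subunits higher and 16 lower with a median of 0.04, so the sign of the median held but its size depended on the scaling. In bulk RNA fewer cells of a type and less RNA per cell cannot be told apart. The 4 arrays of normal podocytes lay all above those of glomerular cells for 35 subunits and all below for 4, against 47.8% and 25.3% of all genes.

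Complex I held 24 of the 43 higher subunits, 64.9% of its 37, against 51.6% of all genes. Of its 37 subunits 1, Ndufa4l2, was lower, and their median was 0.40, against 0.38 over all genes. Without Ndufa4 and Ndufa4l2, counted here by symbol, 24 of 35 were higher and 0 lower, with a median of 0.41. Under quantile normalization complex I gave 15 higher and 6 lower with a median of 0.10. The 16 subunits of complex IV gave 2 higher, Cox6b2 and Cox7b2, and 3 lower, with a median of 0.07. The largest rises among the broadly used subunits were in accessory subunits of the complex I membrane arm. Ndufb4 read 8.05, 7.73, 7.78 and 7.80 in normal podocyte replicates 1 to 4, against 6.76, 6.55, 6.70 and 6.58 in glomerular replicates 1 to 4. Its groups lay far apart, with a difference of 1.19 (SE 0.10, adjusted p = 8.69e-08), or 2.29-fold. Ndufs5, an accessory subunit on the intermembrane side, read 7.71, 7.26, 7.22 and 7.21 in normal podocytes, against 6.57, 6.37, 6.34 and 6.29 in glomerular cells. All podocyte arrays were higher, podocyte replicate 1 most, and the difference was 0.96 (SE 0.13, adjusted p = 1.07e-05). Ndufb2 read 5.73, 5.47, 4.91 and 5.08 in normal podocytes and 4.54, 4.44, 4.13 and 4.31 in glomerular cells, again without overlap, a difference of 0.94 (SE 0.16, adjusted p = 9.12e-05).

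The promoters of Ndufb4 and Ndufs5 are shown because these genes had the largest rises among the broadly used subunits and because each holds more than 1 kind of motif linked to respiratory genes. The letters are the 250 bases before the RefSeq start, from GRCm38.p6, and capitals mark 2 motifs, CGCANGCGC, a form of the site of NRF1, a transcription factor of many respiratory genes, and AAGGTCA, the site of oestrogen-related receptors, on either strand.
Ndufb4, chr16:37654369-37654618, minus strand: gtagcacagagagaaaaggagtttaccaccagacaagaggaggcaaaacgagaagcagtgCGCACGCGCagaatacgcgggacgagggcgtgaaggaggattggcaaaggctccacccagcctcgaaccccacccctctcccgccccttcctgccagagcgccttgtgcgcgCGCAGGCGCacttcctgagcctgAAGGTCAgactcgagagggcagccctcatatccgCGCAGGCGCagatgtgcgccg
Ndufs5, chr4:123718187-123718436, minus strand: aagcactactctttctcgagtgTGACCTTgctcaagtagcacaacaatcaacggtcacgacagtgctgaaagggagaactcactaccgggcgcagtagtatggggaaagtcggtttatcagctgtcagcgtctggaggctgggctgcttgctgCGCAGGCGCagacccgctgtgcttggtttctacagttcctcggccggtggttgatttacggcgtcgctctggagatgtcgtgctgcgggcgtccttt
Ndufb4 held the first motif 3 times and the second 1 time, and Ndufs5 held each 1 time. Promoters were found for 68 of the 84 members. CGCANGCGC stood in 25% of these and in 7.99% of the promoters of 17492 protein-coding genes, a description in which promoters share base composition. The wider spelling was taken after promoters had been read; the stricter GCATGCGC, which overlaps it, stood in 11.8% of members and 3.32% of all. AAGGTCA stood in 7.35% of members and 4.18% of all. CCGGAAG, the core site of GABP, stood in 17.6% and 10.2%, and AAGATGGC, a site of YY1, in 1.47% and 1.77%. ACGTG, the core of the hypoxia response element, stood in 20.6% of members and 19.96% of all. A match is not evidence of binding.

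Of the 7 tested subunits of the catalytic and electron-carrying core of complex I, 6 were higher (85.7%, against 51.6% of all genes). Ndufv1, which binds NADH and the flavin, read 7.19, 6.82, 6.76 and 6.80 in normal podocytes, against 6.48, 6.19, 5.91 and 6.31 in glomerular cells, a difference of 0.67 (SE 0.12, adjusted p = 0.000127) without overlap. Ndufs1, the largest iron-sulphur subunit, read 5.07, 5.10, 5.14 and 5.16 in normal podocytes and 4.91, 4.67, 4.35 and 4.90 in glomerular cells, and its difference was 0.41 (SE 0.12, adjusted p = 0.00431). The glomerular arrays spread more than the podocyte arrays for Ndufs1. Under quantile normalization Ndufs1 had an adjusted p of 0.623.

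In complex II, Sdha, the flavoprotein that oxidises succinate, read 5.55, 5.38, 5.51 and 5.52 in normal podocytes and 5.36, 5.05, 4.92 and 5.38 in glomerular cells, a difference of 0.31 (SE 0.11, adjusted p = 0.0192) whose podocyte arrays barely cleared the highest glomerular one. That call ended under quantile normalization, at -0.02, and without glomerular replicate 2 or 3 (adjusted p = 0.0578 and 0.0705). The membrane anchors Sdhc and Sdhd were higher by 0.57 and 0.33 (adjusted p = 0.00138 and 0.0274). Sdhb, the iron-sulphur subunit, was at 6.44 ± 0.11 in normal podocytes and 6.63 ± 0.22 in glomerular cells (SD, n = 4 each), a difference of -0.19 with an adjusted p of 0.127. In complex III, 4 of 8 subunits were higher (50%, against 51.6% of all genes), with a median of 0.26 against 0.38. These were the core proteins Uqcrc1 and Uqcrc2, by 0.46 and 0.48, Uqcrb by 0.36 and Uqcr11 by 0.36. Uqcrc1 read 4.66, 4.67, 4.37 and 4.49 in normal podocytes, against 4.29, 4.12, 3.71 and 4.21 in glomerular cells, and under quantile normalization its difference was 0.09. Uqcrfs1, the Rieske iron-sulphur protein, differed by -0.03 (adjusted p = 0.816).

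In complex V, 10 of 17 subunits were higher (58.8%, against 51.6% of all genes). Their median was 0.36, against 0.38 over all genes. Atp5a1, the alpha subunit of the catalytic head, read 7.74, 7.52, 7.58 and 7.55 in normal podocytes, against 7.16, 6.76, 6.83 and 7.00 in glomerular cells, with no overlap and a difference of 0.66 (SE 0.09, adjusted p = 1.02e-05). Atp5b, the catalytic beta subunit, read 8.21, 8.26, 7.90 and 8.14 in normal podocytes and 7.97, 7.75, 7.33 and 7.88 in glomerular cells, which overlap, with a difference of 0.40 (SE 0.12, adjusted p = 0.00901). The 3 genes of the c ring make the same mature protein. Atp5g2 differed by 0.59 (SE 0.13, adjusted p = 0.000597), whereas Atp5g1 differed by 0.12 and Atp5g3 by 0.25 (adjusted p = 0.429 and 0.0693). Whether the 3 genes differ from each other in this was not tested.

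**Figure D1:**
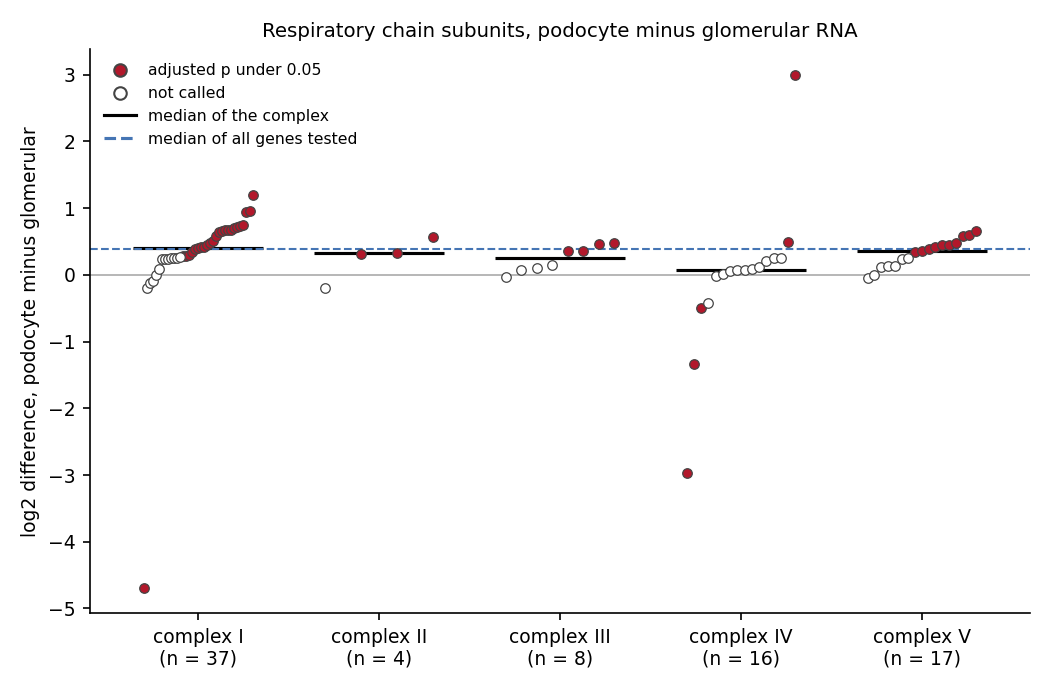
Each point is 1 of the 82 tested subunits, placed by complex, and the vertical axis is its log2 difference in podocyte minus glomerular RNA; filled points have an adjusted p under 0.05, black lines are complex medians and the dashed line is the median of all genes tested, 0.38. Complex I lies mostly above 0, with Ndufa4l2, placed there by its symbol, at -4.69, and complex IV straddles 0 with members between -2.97 and 3.00.

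In complex IV most calls were in tissue-restricted forms. Of the 11 complex IV subunits other than Cox4i2, Cox6a2, Cox6b2, Cox7a1 and Cox7b2, none was called higher by limma, 1 was lower, and the differences ran from -0.50 to 0.25; over all 16, 3 were higher at an unadjusted p under 0.05. Cox4i1, the usual form of the largest complex IV subunit made in the nucleus, was at 7.67 ± 0.16 in normal podocytes and 7.60 ± 0.18 in glomerular cells, and Cox5a was at 7.17 ± 0.12 and 7.05 ± 0.21 in the same order (SD, n = 4 each). Their differences of 0.07 and 0.12 had adjusted p-values of 0.545 and 0.412. Cox6a1, Cox7b and Cox8a differed by 0.01, 0.06 and 0.21, none called, although Cox6a1 was called lower under quantile normalization (-0.42). The exception was Cox7a2l, known as a factor that joins complexes III and IV into supercomplexes. It read 6.56, 6.36, 6.37 and 6.32 in normal podocytes, against 7.00, 6.74, 7.02 and 6.85 in glomerular cells, lower by 0.50 (SE 0.10, adjusted p = 0.000433) on the log2 scale and without overlap. With each array's median over all probes set to 0, its difference was -0.18 with an adjusted p of 0.270.

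Ndufa4l2, the hypoxia-induced relative of Ndufa4, showed the largest difference of any member. It read -0.78, -0.36, -0.22 and -0.95 in normal podocytes, against 3.99, 4.11, 4.48 and 3.87 in glomerular cells. Glomerular cells exceeded podocytes in every array, and the difference was -4.69 (SE 0.23, adjusted p = 5.92e-10), or 25.7-fold lower in podocyte RNA. Ndufa4, now counted with complex IV, was at 6.13 ± 0.30 in normal podocytes and 5.86 ± 0.22 in glomerular cells (SD, n = 4 each), and its difference of 0.26 was not called (adjusted p = 0.139). Cox4i2, the form of Cox4 raised in lung and by low oxygen, read -1.21, -1.29, -1.08 and -1.44 in normal podocytes, against -0.01, 0.08, 0.37 and -0.14 in glomerular cells. It was lower in podocytes by 1.33 (SE 0.13, adjusted p = 2.52e-07), without overlap. Mesangial, endothelial and proximal tubule markers, averaged over their lists, were 3.05, 4.18 and 3.38 above normal podocytes in the glomerular arrays; their part in these differences was not tested.

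Cox6a2, the heart and skeletal muscle form of Cox6a, read -2.98, -3.55, -3.58 and -2.23 in normal podocytes, against -0.39, 0.90, -1.05 and 0.06 in glomerular cells. The spread within each group was wide and the groups did not overlap, with a difference of -2.97 (SE 0.57, adjusted p = 0.000234). Cox6b2 and Cox7b2, both known from testis, went the other way. Cox6b2 read 0.60, 0.53, 0.79 and 0.81 in normal podocytes, against 0.17, 0.19, 0.29 and 0.09 in glomerular cells, higher by 0.50 (SE 0.12, adjusted p = 0.00194). Cox7b2 read -4.24, -2.78, -1.65 and -3.79 in normal podocytes, where it was well above background on all 4 arrays, against -7.39, -6.38, -5.01 and -5.67 in glomerular cells, where it was well above background on none. Normal podocytes were at least 4.03-fold higher, the glomerular side being only a bound taken from the lowest signal well above background on each array. The gene passed the filter only through the group where it is high, so this is a description. Cox7a1, the muscle form of Cox7a, differed by -0.43 with an adjusted p of 0.239.

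**Figure D2:**
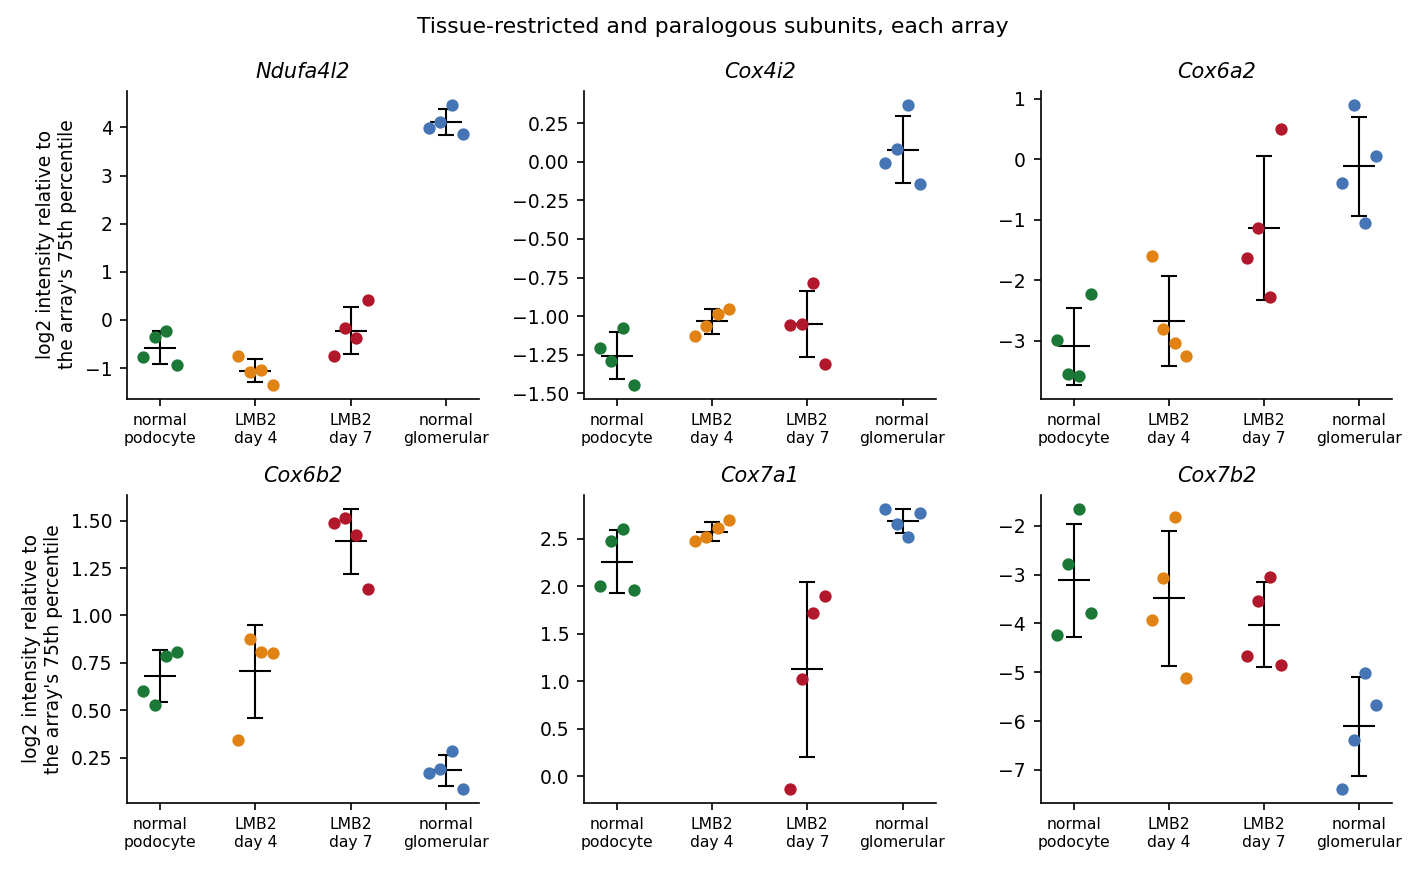
Each panel is 1 tissue-restricted or paralogous subunit; points are single arrays in replicate order, bars are the mean and SD of 4 arrays, and the vertical axis, which differs between panels, is the log2 intensity relative to the array's 75th percentile. Ndufa4l2, Cox4i2 and Cox6a2 are highest in glomerular RNA, Cox6b2 is highest at day 7, Cox7a1 is lowest and most spread at day 7, and Cox7b2 is lowest in glomerular RNA.

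At day 4 after LMB2, 11 of the 82 subunits were lower than in normal podocytes and 0 were higher in limma, with 22 lower and 0 higher at an unadjusted p under 0.05. Among all genes tested, 21.6% were called lower and 12.1% higher. The differences were small. Their median was -0.17, against -0.14 over all genes, but 69 of the 82 subunits lay below 0 (84.1%), as did 64.4% of all genes. Without normal podocyte replicate 1 the subunit median was -0.09, against -0.12 over all genes. The called subunits were 5 of complex I, 1 of complex III, 3 of complex IV and 2 of complex V. The 4 arrays of day 4 lay all below those of normal podocytes for 21 subunits and all above for 0, against 22.4% and 11.7% of all genes. Leaving out single arrays moved the count of called subunits, which was 4 without normal podocyte replicate 1 or without day 4 replicate 4, 5 without day 4 replicate 1, 6 without day 4 replicate 3 and 7 without normal podocyte replicate 2, and other scalings of the arrays gave between 4 and 33. Without the 3 podocyte arrays high in tubule markers it was 4.

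At day 7 after LMB2, 28 subunits were lower and 2 were higher than in normal podocytes. Among all genes, 36.3% were called lower and 22% higher, so the share called lower was near that of all genes and the share called higher was 2.44% of the subunits. The median was -0.24, against -0.14 over all genes. The day 7 arrays lay all below the normal arrays for 26 subunits and all above for 1, against 32.6% and 17.9% of all genes. Day 4 and day 7 share the same normal arrays, so the counts are not independent. The day 7 count rests in part on 2 libraries. Without normal podocyte replicate 1 it was 16, with 11 of 37 in complex I, against 33.0% of all genes called lower. Without day 7 replicate 1 it was also 16, with 11 of 37 in complex I, against 34.0% of all genes. The complex I medians were then -0.21 and -0.25, against -0.13 and -0.12 over all genes. Other scalings of the arrays gave a count between 17 and 58. Without the 3 podocyte arrays high in tubule markers the count was 21, with 15 in complex I.

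At day 7 complex I, 37 of the 82 subunits tested, held 18 of the 28 lower ones. These were 48.6% of complex I, against 36.3% of all genes, and its median was -0.31, against -0.14. Without Ndufa4 and Ndufa4l2 it was 18 of 35 (51.4%) with a median of -0.33. Complex II held 1 of 4, complex III 0 of 8 in limma (3 lower and 0 higher at an unadjusted p under 0.05), complex IV 4 of 16 and complex V 5 of 17. Cyc1 of complex III is not among the 8 and was lower at day 7, as given with the electron carriers below. Whether the complexes differ was not tested. Among complex I subunits the Ndufb and Ndufc group, which builds the membrane arm, had 8 of 12 lower (66.7%) with a median of -0.36. The 7 core subunits had 4 lower (57.1%). The Ndufa group, with Ndufa4 and Ndufa4l2 in it, had 4 of 14 lower (28.6%, under the 36.3% of all genes) with a median of -0.20. Ndufb10, an accessory subunit of the membrane arm, read 7.70, 7.21, 7.34 and 7.31 in normal podocytes, 6.79, 7.08, 7.07 and 6.81 at day 4 and 6.21, 6.85, 6.84 and 6.60 at day 7. Neither LMB2 group overlapped the normal arrays, and the differences were -0.45 (SE 0.15, adjusted p = 0.0335) at day 4 and -0.76 (SE 0.15, adjusted p = 0.000588) at day 7. The day 4 call of Ndufb10 ended with each array's median over the genes tested set to 0 (adjusted p = 0.0783), with no filter on dim probes (0.0517), and without normal podocyte replicate 1 or 3 or day 4 replicate 1 or 4 (up to 0.107). Ndufb3, another membrane arm subunit, read 6.68, 6.26, 6.35 and 6.22 in normal podocytes, 5.78, 6.08, 6.01 and 5.79 at day 4 and 5.35, 5.84, 5.81 and 5.70 at day 7. It was likewise below the normal arrays at both times, by 0.47 (SE 0.13, adjusted p = 0.0146) at day 4 and 0.70 (SE 0.13, adjusted p = 0.000383) at day 7 on the log2 scale.

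Ndufa11, an accessory subunit in the inner membrane, read 4.01, 3.83, 3.28 and 3.68 in normal podocytes, 2.96, 3.31, 3.23 and 3.11 at day 4 and 2.92, 2.90, 3.21 and 3.06 at day 7. Its day 4 arrays overlapped the lowest normal array and its day 7 arrays did not, with differences of -0.55 (SE 0.14, adjusted p = 0.00897) and -0.68 (SE 0.14, adjusted p = 0.000941). Without the 3 arrays high in tubule markers the day 4 difference of Ndufa11 had an adjusted p of 0.0573. Ndufv1 was at 6.89 ± 0.20 in normal podocytes, 6.76 ± 0.03 at day 4 and 6.58 ± 0.10 at day 7 (SD, n = 4 each), called at day 7 (-0.31, adjusted p = 0.0383) and not at day 4. The day 7 call of Ndufv1 ended with the median over the genes tested set to 0 (-0.20, adjusted p = 0.142), with no filter on dim probes (0.0584), with only these groups fitted (0.0621), and without normal podocyte replicate 1 or day 7 replicate 1, 3 or 4 (up to 0.129). Ndufs1 was at 5.12 ± 0.04, 5.11 ± 0.07 and 5.02 ± 0.14 in the same order and was not called at either time (adjusted p = 0.975 and 0.492). The iron-sulphur subunits Ndufs7 and Ndufs8 were lower at day 7 by 0.43 and 0.51.

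The 2 subunits that stood out in the first comparison were also read after LMB2. Ndufs5 read 6.47, 7.00, 6.92 and 6.79 at day 7, below every normal array, and differed from normal podocytes by -0.56 (SE 0.13, adjusted p = 0.00227). Ndufb4 read 7.51, 7.79, 7.70 and 7.55 at day 7 and overlapped the normal arrays, with a difference of -0.20 (SE 0.10, adjusted p = 0.0996) that was not called. The difference between the 2 genes in this was not tested. Other kept probes of Ndufb5 and Ndufv3 differed by -1.26 and -1.13 at day 7, against -0.36 and -0.40 for the probes used. By the probes used, Ndufb10 was the broadly used subunit that fell most at day 7. Its promoter is shown beside those above, from the same build and window. It holds CGCANGCGC 1 time and none of the other motifs searched.
Ndufb10, chr17:24724424-24724673, minus strand: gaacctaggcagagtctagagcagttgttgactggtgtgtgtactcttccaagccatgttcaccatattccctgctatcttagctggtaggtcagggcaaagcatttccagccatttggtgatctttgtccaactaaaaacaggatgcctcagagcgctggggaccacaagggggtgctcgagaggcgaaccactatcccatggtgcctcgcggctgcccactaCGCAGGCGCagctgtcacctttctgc

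**Figure D3:**
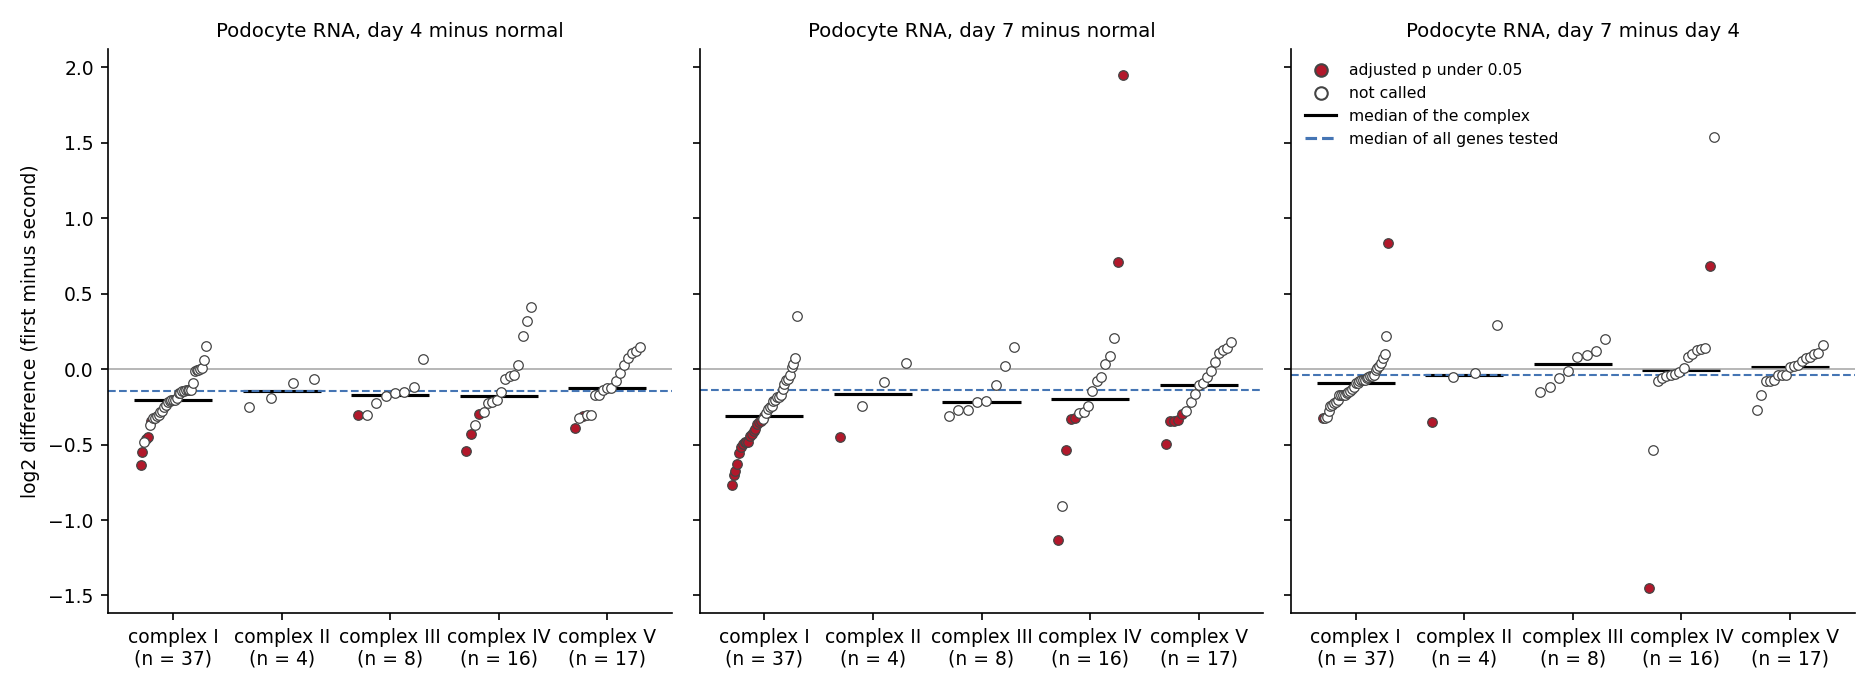
Each point is 1 tested subunit, by complex, and the vertical axis is the log2 difference between the podocyte groups named above each panel; filled points have an adjusted p under 0.05, black lines are complex medians and the dashed line is the median of all genes tested (-0.14, -0.14 and -0.04). Most subunits lie slightly below 0 at day 4 and day 7, complex I lowest at day 7. In day 7 minus normal, Cox6a2 lies at 1.95, Cox7a1 at -1.13, Cox7b2 at -0.91 and Cox6b2 at 0.71. In day 7 minus day 4, Cox6a2 lies at 1.54, Cox7a1 at -1.45, Ndufa4l2 at 0.83 and Cox6b2 at 0.68.

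Outside complex I, Sdha was lower at day 7 and was not called at day 4. It read 5.55, 5.38, 5.51 and 5.52 in normal podocytes, 5.54, 5.41, 5.30 and 5.33 at day 4 and 4.89, 4.96, 5.13 and 5.19 at day 7. The day 7 arrays lay below all others, lower than normal by 0.45 (SE 0.11, adjusted p = 0.00319), whereas day 4 differed by -0.09 (adjusted p = 0.551). Sdhb was at 6.44 ± 0.11, 6.38 ± 0.02 and 6.36 ± 0.16 in normal, day 4 and day 7 podocytes (SD, n = 4 each) and was called at neither time. Sdhb depended on the probe. The probe used differed from normal by -0.06 at day 4 and -0.09 at day 7, and its other kept probe by -0.51 and -0.58. In complex III, Uqcrfs1 was lower at day 4 (-0.31 (SE 0.11, adjusted p = 0.0499)) and not called at day 7 (-0.21, adjusted p = 0.122). The day 4 difference of Uqcrfs1 was not called under quantile normalization, with no filter on dim probes, or with each array's median over the genes tested set to 0, nor without any single array of either group other than normal podocyte replicate 4 (adjusted p up to 0.139). Uqcrc1 differed by -0.15 at day 4 and -0.27 at day 7, neither called.

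Cox6b1, which lies between the partners of the complex IV dimer, read 4.22, 3.81, 3.81 and 3.80 in normal podocytes, 3.20, 3.55, 3.44 and 3.26 at day 4 and 3.12, 3.60, 3.49 and 3.29 at day 7. It was below every normal array at both times, with differences of -0.55 (SE 0.13, adjusted p = 0.00649) and -0.54 (SE 0.13, adjusted p = 0.0033). Cox6c, a small membrane subunit of complex IV, was lower by 0.30 at day 4 and 0.33 at day 7, and Cox5b, a zinc-binding subunit, by 0.43 at day 4. Cox7a2 read 6.60, 6.26, 6.14 and 6.22 in normal podocytes, 5.75, 6.13, 6.16 and 6.03 at day 4 and 5.72, 6.07, 6.09 and 6.05 at day 7, called at day 7 only (-0.32 (SE 0.13, adjusted p = 0.046)) and overlapping at day 4; the difference between the times was -0.04 (adjusted p = 0.859). The day 7 call of Cox7a2 ended with the median over the genes tested set to 0 (adjusted p = 0.151), with no filter on dim probes (0.0681), with only these groups fitted (0.0815), and without any of normal podocyte replicates 1, 2 and 4 or day 7 replicates 1, 2 and 4 (up to 0.151). Cox4i1, Cox5a, Cox6a1, Cox7a2l, Cox7b, Cox8a and Ndufa4 were not called at either time, with day 7 differences between -0.25 and 0.09. Cox7a2l depended on the probe. Its 3 kept probes differed by -0.15, -0.18 and -1.20 at day 4 and by -0.05, -0.08 and -1.11 at day 7, and with their mean in place of the brightest one the gene was called lower at both times (-0.51 and -0.41, adjusted p = 0.00148 and 0.00297).

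In complex V, Atp5g3 read 7.72, 7.46, 7.43 and 7.39 in normal podocytes, 7.08, 7.21, 7.19 and 6.97 at day 4 and 6.85, 7.27, 7.33 and 7.19 at day 7. All LMB2 arrays lay below the normal arrays, by 0.39 (SE 0.12, adjusted p = 0.022) at day 4 and 0.34 (SE 0.12, adjusted p = 0.0256) at day 7. Both calls of Atp5g3 ended with the median over the genes tested set to 0 (adjusted p = 0.0608 and 0.0943) and without normal podocyte replicate 1 (0.0709 and 0.0836), the day 4 call also without day 4 replicate 4 (0.0693), and the day 7 call also without day 7 replicate 1 (0.0893) and with only these groups fitted (0.0652). The other c ring genes were not called. Atp5g1 differed by 0.11 and 0.13 at the 2 times, and Atp5g2 by 0.14 and 0.11. Atp5d, of the central stalk, was lower by 0.31 at day 4 and 0.30 at day 7, and Atp5h, Atp5c1 and Atp5l, of the stalks and the membrane base, were lower at day 7 by 0.50, 0.35 and 0.35. The catalytic pair was not called. Atp5a1 was at 7.60 ± 0.10, 7.46 ± 0.05 and 7.38 ± 0.05 in normal, day 4 and day 7 podocytes and Atp5b at 8.13 ± 0.16, 8.21 ± 0.05 and 8.31 ± 0.09 (SD, n = 4 each), with adjusted p-values at day 7 of 0.0544 and 0.237.

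By the probes used, the largest differences from normal podocytes at day 7 were in tissue-restricted subunits of complex IV, Cox6a2 upward and Cox7a1 downward. Cox6a2 read -2.98, -3.55, -3.58 and -2.23 in normal podocytes, -1.59, -2.81, -3.03 and -3.25 at day 4 and -1.63, -1.14, -2.28 and 0.50 at day 7. Most day 7 arrays were above the normal arrays, replicate 3 overlapped normal replicate 4, and the difference was 1.95 (SE 0.57, adjusted p = 0.00876), or 3.86-fold. Day 4 differed from normal by 0.41 (adjusted p = 0.614). The highest array of each podocyte group was the one highest in proximal tubule markers, day 7 replicate 4, day 4 replicate 1 and normal replicate 4. Without day 7 replicate 4 the day 7 difference was 1.40 with an adjusted p of 0.0272, without the 3 arrays it was 1.69 with an adjusted p of 0.00554, and under normexp background correction with quantile normalization it was 0.86 with an adjusted p of 0.0531.

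Cox6b2 read 0.60, 0.53, 0.79 and 0.81 in normal podocytes, 0.34, 0.88, 0.81 and 0.80 at day 4 and 1.49, 1.51, 1.42 and 1.14 at day 7. Every day 7 array was above every normal and day 4 array, a rise of 0.71 (SE 0.12, adjusted p = 0.000206) over normal. Cox7a1 went down. It read 2.00, 2.47, 2.60 and 1.95 in normal podocytes, 2.47, 2.52, 2.61 and 2.69 at day 4 and -0.13, 1.02, 1.71 and 1.90 at day 7, so that the day 4 arrays were close together and the day 7 arrays spread widely, replicate 1 lowest. All day 7 arrays lay below the normal arrays, with a difference of -1.13 (SE 0.33, adjusted p = 0.00809), and without day 7 replicate 1 the difference was -0.71 (adjusted p = 0.00838). Cox4i2 and Cox7b2 were not called at either time. Cox7b2 was well above background on 4 normal arrays, 3 day 4 arrays and 2 day 7 arrays.
Cox7a1, chr7:30183921-30184170, plus strand: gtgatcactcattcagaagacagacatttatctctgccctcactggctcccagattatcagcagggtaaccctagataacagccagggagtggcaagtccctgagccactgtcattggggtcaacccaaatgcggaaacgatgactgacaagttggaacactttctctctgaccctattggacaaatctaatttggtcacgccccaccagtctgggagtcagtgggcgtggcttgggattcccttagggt
This is the promoter of the subunit that fell most by the probes used, the 250 bases before its RefSeq start in GRCm38.p6. It holds none of the motifs searched, which says only that those letters are not in this window.

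Between the LMB2 times, 2 subunits were higher and 3 lower at day 7 than at day 4. Among all genes, 14% were called higher and 18.6% lower, and the medians were -0.05 over the subunits and -0.04 over all genes. The groups did not overlap for 4 subunits above and 3 below, against 13.4% and 19.8% of all genes. Without day 4 replicate 2, day 7 replicate 1 or day 7 replicate 2 the lower count was 1. The day 4 arrays filled 1 row of the slide and the day 7 arrays the other, so row and day cannot be told apart. Cox7a1 was lower at day 7 than at day 4 by 1.45 (SE 0.33, adjusted p = 0.00407) and Cox6b2 higher by 0.68 (SE 0.12, adjusted p = 0.000968). Ndufa4l2 read -0.75, -0.17, -0.38 and 0.41 at day 7, against -0.75, -1.09, -1.04 and -1.34 at day 4, higher by 0.83 (SE 0.23, adjusted p = 0.0135) with the lowest day 7 array just above the highest day 4 one. Sdha and Ndufb11, an accessory subunit of the membrane arm, were lower at day 7 by 0.35 (SE 0.11, adjusted p = 0.0256) and 0.33 (SE 0.12, adjusted p = 0.0472). Leaving out single arrays ended the calls of both, for Sdha day 4 replicates 1 and 2 and day 7 replicates 1 and 2, and for Ndufb11 any of day 4 replicates 2 to 4 and day 7 replicates 1, 2 and 4, with adjusted p-values up to 0.0744 for Sdha and 0.134 for Ndufb11. Cox6a2 differed by 1.54 (adjusted p = 0.0512).

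Seen array by array, normal podocyte replicate 1 was highest for complexes I, II, III and V. Set against the mean of the 4 normal podocyte arrays, complex IV ran from -0.07 to 0.07 on them and averaged 0.04 in glomerular RNA. The other complexes averaged between -0.33 and -0.24 in glomerular RNA. Without its tissue-restricted forms, complex IV ran from -0.09 to 0.22 on normal podocyte arrays and averaged -0.06 in glomerular RNA. The mean over all 82 subunits, set against the mean of the 4 normal podocyte arrays, was 0.20 on normal replicate 1 and -0.04, -0.07 and -0.10 on normal replicates 2 to 4. At day 4 it was -0.26, -0.09, -0.09 and -0.23 on replicates 1 to 4, and at day 7 it was -0.45, -0.11, -0.07 and -0.18. In glomerular RNA it was -0.06, -0.31, -0.34 and -0.21. Normal replicate 1 was thus the highest of all arrays and day 7 replicate 1 the lowest, and normal replicates 2 to 4 overlapped the LMB2 arrays. The group means were -0.17 ± 0.09 at day 4 and -0.20 ± 0.17 at day 7, against a spread of 0.14 (SD) among normal podocytes (n = 4 each). For complex I they were -0.21 ± 0.08 and -0.30 ± 0.17, against an SD of 0.17.

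**Figure D4:**
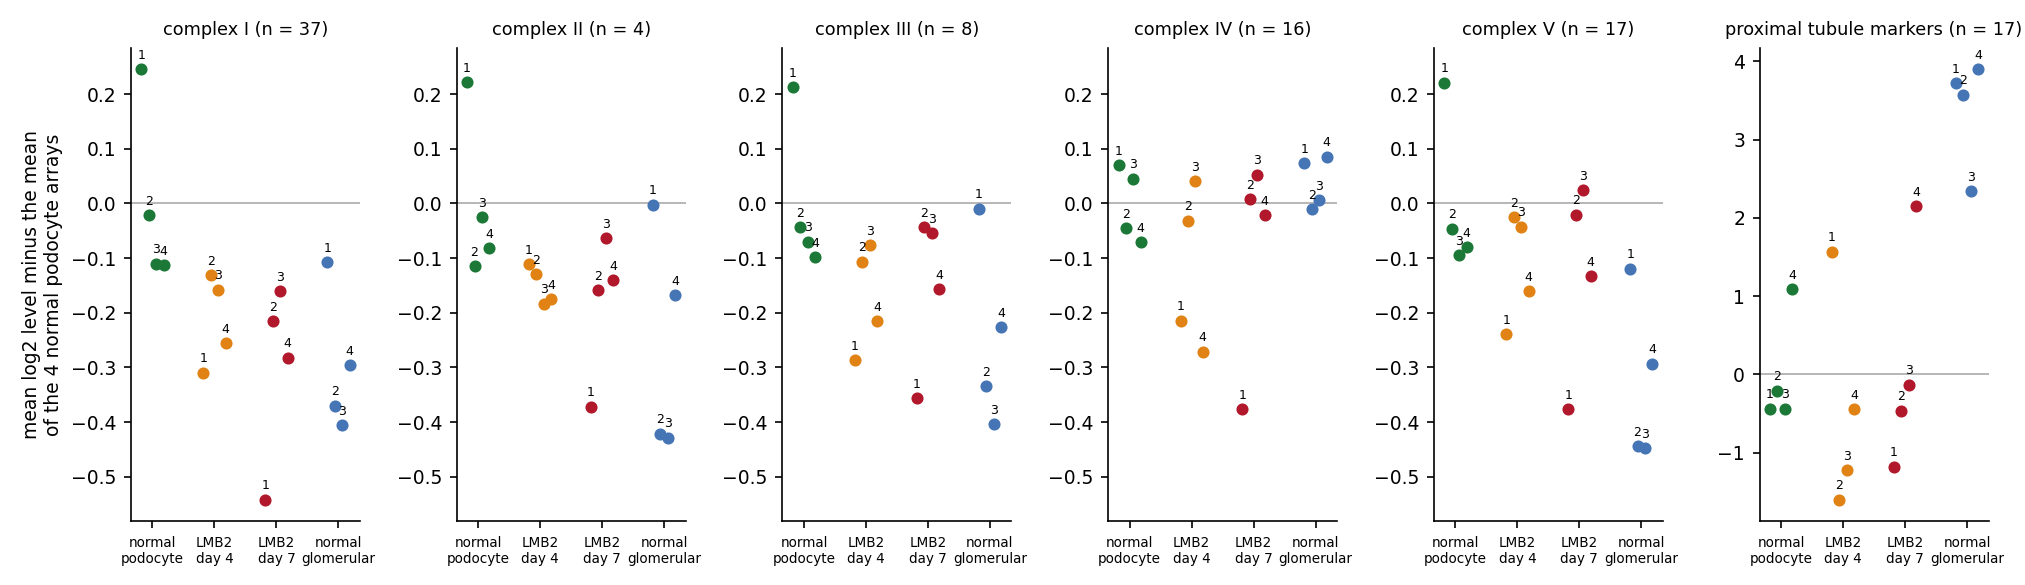
Each point is 1 array, numbered by replicate, and the vertical axis is the mean log2 level of the subunits of a complex minus the mean of the 4 normal podocyte arrays; the last panel shows the mean of 17 proximal tubule markers on its own axis. Normal podocyte replicate 1 is highest for complexes I, II, III and V, and day 7 replicate 1 is lowest among podocyte arrays in every complex.

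Marker levels moved with the LMB2 groups. At day 7, 8 of 10 podocyte markers were lower than in normal podocytes, and their mean was -0.98 ± 0.09 (SD, n = 4), against -0.32 ± 0.16 at day 4. All 5 parietal epithelial markers and 2 of 8 mesangial markers, Des and Acta2, were higher at day 7. Of 17 proximal tubule markers 1, Ttc36, was higher. The mean of the parietal list ran from 0.61 to 2.04 on the day 7 arrays and from -0.23 to 0.15 on the normal podocyte arrays. Without injury, Cldn1 and Pax8 of that list had higher means in podocyte than in glomerular RNA. The part of these genes' cells in the subunits' differences was not tested.

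Other genes of mitochondrial respiration were taken from lists, whose counts stand beside shares of all genes tested of 51.6% higher and 27.6% lower in podocyte RNA, 12.1% and 21.6% at day 4, 22% and 36.3% at day 7, and 14% and 18.6% between day 7 and day 4. The medians over all genes were 0.38, -0.14, -0.14 and -0.04 in that order. Of 37 assembly factors, which build the complexes without staying in them, 31 were higher in podocyte than in glomerular RNA (83.8%), with a median of 0.73. At day 4 they gave 1 higher and 13 lower (35.1%) with a median of -0.23, and at day 7 they gave 4 higher and 23 lower (62.2%) with a median of -0.49. Between day 7 and day 4, 1 was higher and 12 lower (32.4%). Uqcc1, which helps make cytochrome b of complex III, was higher in podocytes by 1.87 (SE 0.10, adjusted p = 1.34e-09) and lower at day 7 by 1.16 (SE 0.10, adjusted p = 4.22e-07). Sdhaf2, which puts the flavin on Sdha, was lower at day 7 by 1.01 (SE 0.09, adjusted p = 7.11e-07), and Sdhaf1, which helps place iron-sulphur clusters in Sdhb, was lower at day 4 by 0.66 (SE 0.12, adjusted p = 0.000734).

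Of 14 genes of the tricarboxylic acid cycle, 10 were higher in podocyte than in glomerular RNA (71.4%, median 0.49). At day 4, 3 were lower (21.4%, near the 21.6% of all genes, median -0.17), and at day 7, 10 were lower (71.4%, against 36.3%, median -0.40). Suclg2, a subunit of the ligase that makes GTP from succinyl-CoA, was lower by 1.01 (SE 0.21, adjusted p = 0.00218) at day 4 and 1.38 (SE 0.21, adjusted p = 6.5e-05) at day 7. Idh3b, of the NAD-linked isocitrate dehydrogenase, was lower by 0.92 and 1.17 at the 2 times. Of 77 mitochondrial ribosomal proteins, which translate the subunits made from mitochondrial DNA, 65 were higher in podocyte RNA (84.4%, against 51.6% of all genes, median 0.72). At day 7, 4 were higher and 46 lower (59.7%, against 36.3%, median -0.36), and Mrps6 and Mrpl49 were lower by 1.19 and 1.08. Of 6 electron carriers outside the subunit families, 3 were lower at day 7. Cyc1, cytochrome c1 of complex III, was lower by 0.47 at day 4 and 0.70 at day 7.

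Of 12 regulators of mitochondrial genes, 8 were higher (66.7%, against 51.6% of all genes) and 2 lower (16.7%, against 27.6%) in podocyte than in glomerular RNA. The lower ones, by 1.64 and 1.62, were Esrrg, an oestrogen-related receptor, and Ppargc1a, a coactivator of mitochondrial biogenesis. At day 7, 1 was higher and 5 lower (41.7%, near the 36.3% of all genes). Tfam, which packs and transcribes mitochondrial DNA, was lower by 0.49 (SE 0.11, adjusted p = 0.00364) at day 4 and 0.95 (SE 0.11, adjusted p = 5.01e-06) at day 7. Tfb1m, which methylates the small ribosomal RNA of mitochondria, was lower by 0.46 and 1.06. Gabpb1, a subunit of GABP, was higher by 0.84 and 0.92. None of these lists was tested against the subunits.

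**Figure D5:**
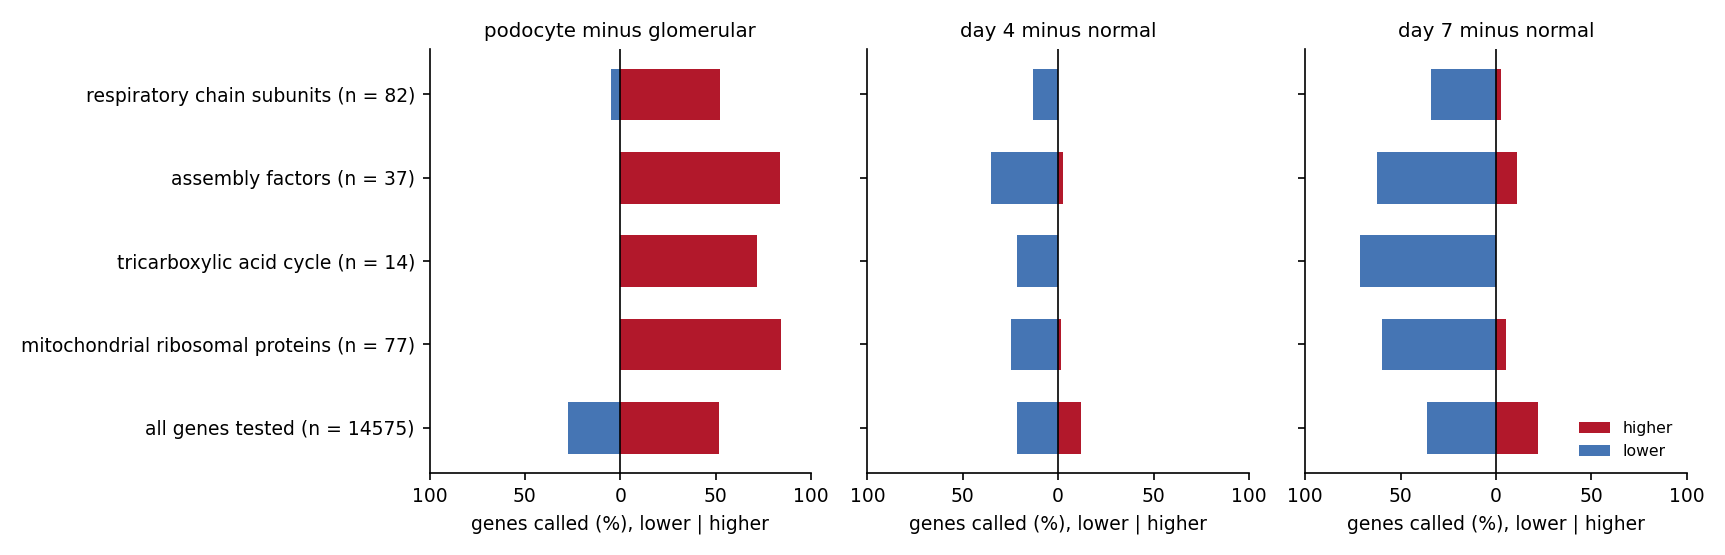
Bars give the percent of genes called higher (right) and lower (left) at an adjusted p under 0.05 in each list, with all 14575 genes tested at the bottom, for podocyte minus glomerular, day 4 minus normal and day 7 minus normal. The subunits have the smallest share of calls at day 7 among the lists drawn, 2.44% higher and 34.1% lower.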

How the data were processed

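Polysome RNA of 16 samples in 4 groups of 4 was measured on Agilent arrays. Per the file headers and the submitters' processing notes, the deposited intensity was written by Feature Extraction 11.5.1.1, background-subtracted and not normalized between arrays, and the authors' deposited value table gives 39430 probes on a log2 scale. Each column there was a scanner array shifted by a constant, and 6 columns matched another replicate of their own group. How the shift was chosen is not given in the sources used here. Positions are printed only for promoters, in the build of the RefSeq table; probe positions are not, since the array design uses another build.

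The members and lists were chosen with earlier results of these data known. Control and outlying spots were left out, and repeated spots were averaged, leaving 55681 probes, 26582 of them with 1 gene name through the RefSeq table (GRCm38.p6). Each value is the log2 of the processed intensity, less the 75th percentile of its array. Among a gene's kept probes the one of highest mean represented it; 22 members had more than 1 kept probe, and every called member among them had probes of 1 sign. Limma 3.58.1 in R 4.3.3 fitted group means over 16 arrays (lmFit, eBayes, 12 residual degrees of freedom) and was tested on simulated data. Named members are, in each comparison, the 4 called rises and 4 called falls that were largest, with a set list of core subunits and isoforms. The values of 1 of them are not reported here. The share of spots well above background ran from 49.3% to 57.5%, the 75th percentile ran from 227 to 415, and no spot was saturated; the number of arrays limits the precision.

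Same-numbered podocyte and glomerular samples deviated together (correlations 0.42, 0.45, 0.46 and 0.51, each sample best with its own number), so the number was used as a block. The labels do not give a pairing. Same-numbered arrays also lay side by side on the slide, so pairing and position cannot be told apart. In the LMB2 comparisons same-numbered samples did not all deviate together. Alternatives covered scaling, background correction, filters, probe choice, the value table, blocks, the groups fitted and each sample left out.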

Additional observations from a re-analysis of the deposited data

Results flagged for a closer look

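Across 34 named members in 4 groups, 136 sets of 4 arrays were checked for an array apart from the other 3 (by Dixon's test of the gap against the range), and 10 had one; chance alone gives about 1 in 20. Normal podocyte replicate 1 accounted for 7, always high. Cox4i1 read 7.91 there, with the nearest normal array at 7.62. Cox6b1 read 4.22, with the nearest at 3.81. Cox7b read 6.69 (nearest 6.44), Ndufb11 7.62 (nearest 7.27), Ndufs5 7.71 (nearest 7.26), Ndufv1 7.19 (nearest 6.82) and Sdhb 6.62 (nearest 6.40). Day 4 replicate 1 stood apart for Cox6b2, low at 0.34 with the nearest at 0.80, and for Sdhb, high at 6.41 with the nearest at 6.37, a gap of little size in a tight group. Day 7 replicate 1 was low for Cox7a2, at 5.72 with the nearest at 6.05.

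For 5 members the difference from normal podocytes was not the same at day 7 and day 4, by limma's test of day 7 minus day 4. It was 0.68 for Cox6b2, -1.45 for Cox7a1, 0.83 for Ndufa4l2, -0.33 for Ndufb11 and -0.35 for Sdha. Adjusted p-values were 0.000968, 0.00407, 0.0135, 0.0472 and 0.0256 in that order. All 4 day 7 arrays lay on 1 side of the 4 day 4 arrays for each of these except Ndufb11.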

How the results depend on the processing

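Quantile normalization gave 27 subunits higher and 16 lower in podocyte against glomerular RNA with a median of 0.038 (complex I 15 higher and 6 lower), and normexp with quantile normalization 26 and 16 with a median of 0.033 (complex I 15 and 6). Cox6a1 was then lower in podocytes, with differences of -0.42 and -0.37, and Sdha stood at -0.025 under quantile normalization. For the median over all probes, an alternative chosen after seeing the data, the podocyte median was 0.61 and the all-gene median moved from 0.38 to 0.70. At day 4 the lower count was 20 under quantile normalization (1 higher), 19 under normexp, 23 under normexp with quantile normalization, 5 with no dim filter, 5 without day 4 replicate 1 and normal replicate 4, 4 when day 7 replicate 4, also high in tubule markers, was left out with them (chosen after seeing the data), 4 with the median over genes tested and 33 with that over all probes (median -0.42, all genes -0.39). At day 7 it was 45 under normexp, 43 under normexp with quantile normalization (1 higher), 17 in a fit of only these groups, 17 with the median over genes tested and 58 over all probes with a median of -0.57 (all genes -0.47, complex I 30 lower). For day 7 minus day 4 it was 13 and 15 under the quantile settings and 1 without the 3 tubule-high libraries. Leaving out 1 sample gave 4 to 13 lower at day 4, 16 to 31 at day 7 (complex I 11 to 19), 1 to 3 for day 7 minus day 4, and 34 to 47 higher in podocytes. With the replicate number as a block, podocytes had 53 higher and 4 lower. In the LMB2 comparisons same-numbered samples did not all deviate together. Lower counts with the block were there 1 at day 4, 7 at day 7 (complex I 4) and 1 (1 higher) for day 7 minus day 4. The cause of these shifts was not tested. Medians kept their sign except for day 7 minus day 4, which ran from -0.10 to 0.03 when 1 sample was left out. Slide as a random block was not run, since each slide holds its own groups. The array row as a block, added after seeing the data, gave 41 higher in podocytes.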
